A study of Mus musculus with 2 samples.

Results

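Antisense loci are stretches of the genome where long reads were placed on the strand opposite an annotated gene, here called the sense gene. Every locus that the deposited tables class as antisense was taken, apart from those on spike-in contigs and those opposite Klhl31. Replicate 1 held 6335 such loci and replicate 2 held 5629. Loci on the same strand with overlapping spans were joined across libraries, which gave 9726 regions among 27022 annotated genes and unannotated loci with reads in the series.

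The RNA came from the gastrocnemius, the large calf muscle, of male B6CASTF1/J mice at postnatal day 14. These animals are first-generation offspring of C57BL/6 and CAST parents, and reads of the CAST copy of a gene were placed on the C57BL/6 reference, mm10. The series has 1 group with 2 biological replicates, made from 2 µg of RNA each, and no contrast between conditions. Labels name several males and 1 donor identifier for both replicates. Whether the replicates are pools or separate animals is not stated, so the spread and the tests between them may be technical. Both libraries held muscle RNA by its markers: Acta1, Ckm and Atp2a1 filled the first 3 ranks of all genes in each. In bulk tissue, fewer cells of a type and less RNA per cell cannot be told apart.

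Natural antisense RNAs arise from the strand opposite a gene and can overlap its promoter, its introns or its end. Known examples act on the chromatin, splicing or stability of their sense partner, and many others have no known role. Long reads are made from complementary DNA that is commonly primed on runs of A. A model's 3′ end is therefore read together with the bases that follow it in the genome.

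The sequences that follow carry the main observation at the ends of antisense models. Each shows the last 10 bases of a model in lower case and the 20 genomic bases after it in capitals, 5′ to 3′ on the antisense strand of mm10. They were chosen after their values were seen, from 40 regions. These were the most abundant with an end off annotated positions, within 10 bases of each other in both libraries, and covered by annotated exon or promoter sequence.
Spry2: cacatggaccAAAAAAAAAAAAAAAAAAAA
Kdm6b: cattggaagtAAAAAAAAAAAAAAAAAAAA
Mn1: acctagacccAAAAAGAAAAAAAAAAAAAA
Furin: tacccccattAAAAATACAAAAAAAAAAAA
Ak1: acacgagatgCTGTCTTAAAAAAAAAAAAA
Acot2: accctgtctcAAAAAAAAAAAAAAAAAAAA
Gnb1 region 1: caaagtcttgCTACAAATGACTTATATTTA
Klhl24 region 1: taagagcactGTCTGTTCTTCCAAAGGACC
The Spry2 window lies at chr14:105892586-105892615 on the plus strand, opposite the 3′ untranslated region (UTR) of Spry2, an inhibitor of receptor tyrosine kinase signalling. The Ak1 window lies at chr2:32634197-32634226 on the minus strand, opposite the 3′ UTR of the muscle adenylate kinase. Those of Kdm6b, a histone demethylase, and Furin, a protease of the secretory pathway, lie at chr11:69399322-69399351 and chr7:80389809-80389838, both on the plus strand. The Klhl24 and Gnb1 windows, at chr16:20123793-20123822 and chr4:155557942-155557971 on the minus strand, are the exceptions. The windows follow the model end of replicate 2; for Ak1 that of replicate 1 lay 4 bases further on. Only Klhl24 and Gnb1, 2 of the 40 windows, held fewer than 12 A among the 20 bases after the end, with 4 A for Klhl24 and 8 A for Gnb1. The median over the 40 was 18 A, and the model ended on the same base in both libraries in 28 of them.

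Antisense loci took a small share of the reads, and most of them rested on 1 read. They held 16551 of 1094607 reads in replicate 1 (1.51%, exact Clopper-Pearson 95% interval 1.49 to 1.54) and 14888 of 626289 in replicate 2 (2.38%, 2.34 to 2.42). The mean was 1.94% ± 0.612 (SD, n = 2), and the share in replicate 2 was 1.57 times that in replicate 1. Intervals cover counting error only. Unannotated intergenic loci were fewer, at 1371 and 1651, and held 0.316% and 0.526% of reads. Single-read loci made up 70.5% and 71.9% of antisense loci, while 171 and 179 loci reached 10 reads and 12 and 13 reached 100. One read was worth 0.914 and 1.60 counts per 1000000 reads (CPM), so a region with no read in a library could still have up to 2.74 or 4.79 CPM, the level of 3 reads.

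Of the 9726 regions, 1976 (20.3%) had reads in both libraries, against 15.8% of intergenic regions and 75.9% of annotated genes. Among loci with at least 3 reads the share was 31% (408 of 1315). Regions found in both held 65.0% of the antisense reads in replicate 1, and 70.1% in replicate 2. Abundant regions recurred: 243 of the 260 with at least 10 reads in either library were found in both. Over the 99 regions with at least 10 reads in each, levels correlated with a Spearman rho of 0.54 and a Pearson r of 0.69 on log2 CPM, a description over regions that share their 2 libraries.

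The most abundant antisense regions were led by single-exon models over the exons of genes of very different kinds, and most lay opposite a 3′ UTR. Of the 15 regions with the highest mean, 10 lay mostly over a 3′ UTR, 4 over the exon of a non-coding gene and 1 over a 5′ UTR. All 15 lay inside the sense gene and over its exons alone. In 13 of them the antisense reads outnumbered the sense reads in both libraries. Choosing regions by their antisense level raises this count by its own construction. Over all loci with a sense gene, 10.9% and 19.7% exceeded it.

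**Figure D1:**
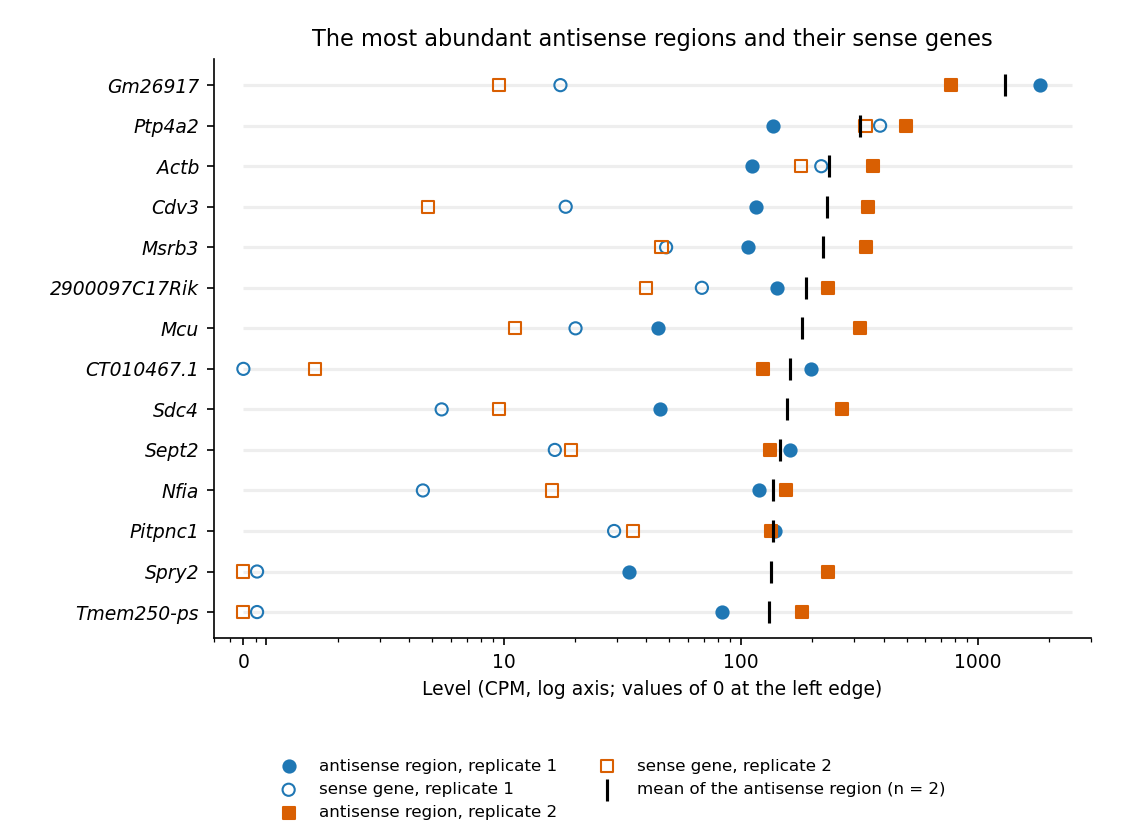
Level of the most abundant antisense regions (filled; 1 of the 15 is not shown) and of their sense genes (open) in CPM on a log axis, with replicate 1 as circles, replicate 2 as squares and the mean of the antisense region as a bar. The filled points lie to the right of the open ones in both libraries for all regions shown but Ptp4a2 and Actb, which are the exceptions in replicate 1.

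The region opposite Gm26917 (ENSMUSG00000097971.3, a long non-coding RNA gene) was the most abundant. It lies on the minus strand at chr17:39843013-39846245 and had 2004 and 481 reads, or 1831 and 768 CPM (mean 1299 ± 752, SD, n = 2). Gm26917 itself had 19 and 6 reads. Next to it on the plus strand, the region opposite CT010467.1 (ENSMUSG00000106106.2, typed as a ribosomal RNA gene) at chr17:39846353-39846958 had 216 and 78 reads against 0 and 1. On its own strand it overlaps the annotated gene Gm42418, which had 95 and 35 reads; such a gene was present at 87 and 81 antisense loci in all. Ribosomal RNA has many near-identical copies, so the placement of both regions is uncertain. Together they made up 13.4% and 3.75% of antisense reads, and the antisense share of each library without them was 1.31% and 2.29%.

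The Spry2 region had 37 and 146 antisense reads at chr14:105891947-105892595, against 1 and 0 sense reads. The region opposite Ptp4a2 (ENSMUSG00000028788.14), a protein tyrosine phosphatase, was the exception by place: its leading model, 528 bases in both libraries, lay over a 5′ UTR exon. It had 149 and 312 reads, below the 423 sense reads in replicate 1 and above the 210 in replicate 2. Antisense to Irs1, the insulin receptor substrate, was named for its ratio to the sense gene and had 19 and 64 reads against 26 and 13; the annotated gene Gm9747, on the strand of the antisense region, had 5 and 1.

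Mcu (ENSMUSG00000009647.13) encodes the pore of the mitochondrial calcium uniporter, and its 3′ UTR carried 49 and 199 antisense reads against 22 and 7 sense reads. Sdc4, a heparan sulphate proteoglycan of the cell surface, carried 50 and 167 against 6 and 6. Actb (ENSMUSG00000029580.14), cytoplasmic actin, carried 122 and 225 against 239 and 112, with a leading model of 421 bases at chr5:142903234-142903654 in both libraries. Sept2, a filament-forming septin, carried 176 and 83 against 18 and 12. These reads lay within the last 15% of each gene's span: the leading Actb model began at 96.7% of the span and ended at 85.2%, and the Mcu model of replicate 2 ran from 99.7% to 99.4%.

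Among the remaining abundant regions, Cdv3 had 127 and 215 antisense reads against 20 and 3. Msrb3, a methionine sulphoxide reductase, had 117 and 212 against 53 and 29. The transcription factor gene Nfia had 131 and 97 against 5 and 10, and Pitpnc1, a phosphatidylinositol transfer protein, 153 and 84 against 32 and 22. The non-coding genes 2900097C17Rik and Tmem250-ps had 155 and 146 against 75 and 25, and 91 and 113 against 1 and 0. In all of these, which were chosen by their antisense level, the antisense exceeded the sense count in each library.

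Nearly all antisense loci lay inside their sense gene, and those with many reads lay elsewhere along it than those with few. Of loci with an annotated sense gene, 93.1% and 95.8% lay within its span, and 95.6% and 95.5% of sense genes were protein-coding. Introns lay under most bases of 74.5% and 67.4% of loci, and they make up 92.4% and 92.6% of the span of these sense genes. The 3′ UTR, 2.59% and 2.57% of the span, lay under most bases of 12.5% and 20.2% of loci and of 25% and 43.9% of the reads. Coding exons, 2.49% and 2.40% of the span, were the main part under 2.18% and 2.50% of loci. With at least 3 reads, 27.2% and 46.7% of loci lay mostly over a 3′ UTR, and with at least 10 reads 49.1% and 70.4% did. The share mostly over introns fell over the same steps to 56.3% and 39.3%, then to 31% and 13.4%.

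**Figure D2:**
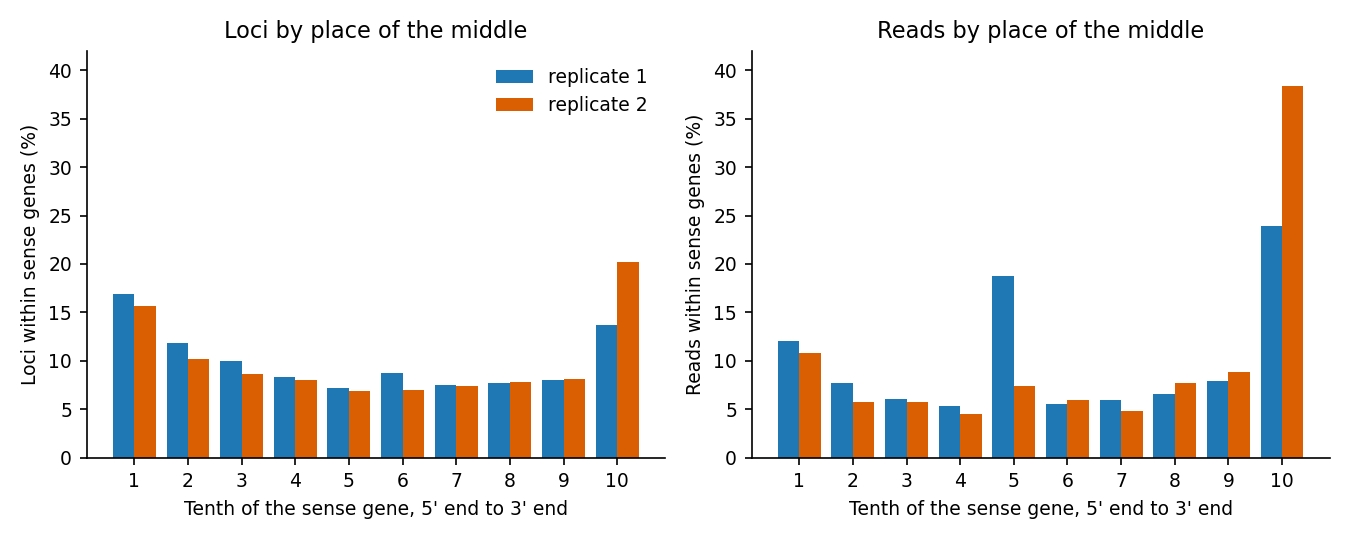
Share of loci (left) and of reads (right) within sense genes by the slice of 10% of the gene that holds the middle of the leading model, from the 5′ end to the 3′ end, in percent, with replicate 1 in blue and replicate 2 in orange. The last slice holds 24.0% and 38.3% of reads, and the fifth slice of replicate 1, with 18.7%, contains the Gm26917 region.

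Loci gathered at both ends of genes. The first 10% of the sense gene held 16.9% and 15.7% of the loci within genes and the last 10% held 13.7% and 20.2%, while the slices between held 6.93% to 11.9% each. By reads, the last slice led with 24.0% and 38.3%. At the 5′ end, 294 and 169 loci ran out past the start of the sense gene, and 231 and 143 of these began within 1000 bases inside it. Antisense to Klf9, a Krüppel-like transcription factor, also ran past the start, with 27 and 9 reads against 212 and 64. The same place was seen opposite the mitochondrial genes Slc25a3, Uqcrc1 and Cox5a, with 5 and 3, 5 and 3, and 4 and 1 reads. Past the 3′ end ran 127 and 55 loci.

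The antisense level was below the sense level at most loci, and above it at many of the abundant loci. Antisense reads were fewer than sense reads at 83.0% and 71.0% of loci, and more at 10.9% and 19.7%, among them 7.75% and 14.2% whose sense gene had no read. When only the annotated models of the sense gene were counted, 31.9% and 43.2% of loci exceeded it. Where the sense gene had at least 10 reads, the median ratio was 0.0385 over 3630 loci of replicate 1 and 0.05 over 2210 of replicate 2. Of loci with at least 10 reads themselves, 44.4% and 68.2% exceeded their sense gene, a share that the read minimum raises by its own construction. Among the 99 regions with at least 10 reads in each library, 48 exceeded the sense gene in both. Strand use in the authors' counting is not given in the sources used here, so reads placed on the wrong strand cannot be told apart from antisense RNA.

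**Figure D3:**
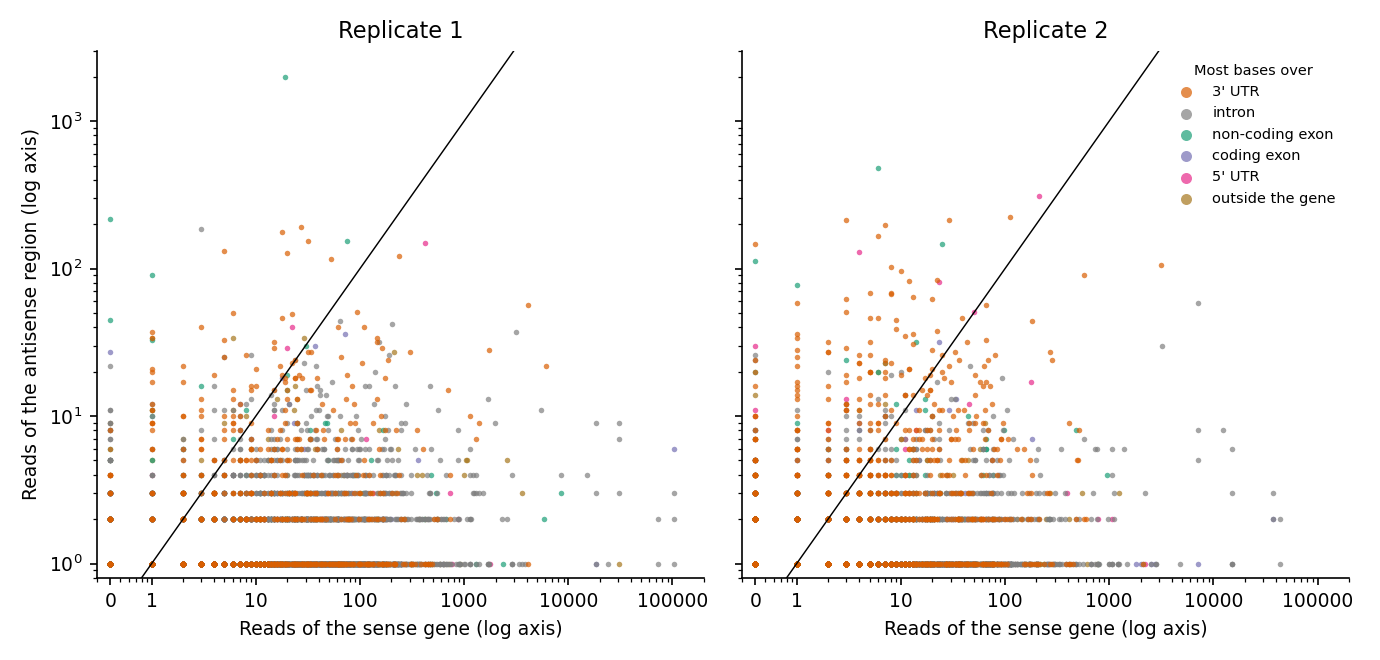
Reads of each antisense region against reads of its sense gene in replicate 1 (left) and replicate 2 (right), both axes logarithmic with a sense count of 0 at the left, coloured by the part of the sense gene under most bases (points of low counts overlap). Above the line the antisense reads outnumber the sense reads. Over the loci of each library before joining, this was so at 10.9% and 19.7%.

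Genes with the most sense reads more often had an antisense locus than those with the fewest, and had far fewer antisense reads for each sense read. Of protein-coding genes with 1 to 9 sense reads, 24.9% and 25% had a locus. With 10 to 99 reads the shares were 32.6% and 30%, and from 100 to under 1000 reads 36.8% and 30%, so replicate 2 showed no rise between these classes. With 1000 or more sense reads, 45.8% of 83 genes and 38.9% of 54 genes had one. Antisense reads per 100 sense reads fell from 19.4 and 26.8 in the first class to 0.0598 and 0.0919 in the last; the sense count sets both the class and the denominator.

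Genes of muscle contraction had some antisense loci, led by introns of Myh4, Ldb3, Ttn and Neb. In the contractile and Z-disc list 22 and 23 of 50 genes had a locus, with 0.804 and 1.47 antisense reads per 1000 sense reads. Over all protein-coding genes with reads, 29.5% and 27.1% had a locus, and the rate was 12.7 and 22.9. The class of 1000 or more sense reads, to which the most expressed contractile genes belong, had 0.0598 and 0.0919 per 100 sense reads. On the same scale, the list's rate was not below that of this class. Myh4, the fast myosin heavy chain of type IIb fibres, led with 9 and 58 reads in an intron at chr11:67257855-67258043, against 18473 and 7180 sense reads. Ldb3, a Z-disc protein, had 26 and 11 reads against 188 and 105, titin (Ttn) 9 and 10 against 246 and 77, and nebulin (Neb) 10 and 9 against 174 and 49. Their leading models also lay mostly over introns.

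Antisense to calcium handling and energy genes was led by Pvalb and Ak1. In the calcium list 13 and 17 of 26 genes had a locus, at 0.739 and 1.65 per 1000. Pvalb, the calcium buffer parvalbumin, had 37 and 30 antisense reads in an intron against 3176 and 3190. The chloride channel gene Clcn1 had 4 and 5, and the first region of Trdn, which encodes triadin, had 5 and 6. Of the glycolysis and energy transfer list 13 and 9 of 25 had one, at 0.660 and 1.87. Ak1 had 22 and 106 reads against 6046 and 3150, while Pfkm, Pygm and Pkm had 13 and 6, 9 and 6, and 11 and 3. Of 35 mitochondrial energy genes, 13 and 12 had one, at 0.821 and 0.742, with no region above 5 reads among the 4 named.

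Of 24 muscle transcription factors and splicing regulators, 18 had a locus in each library, with 104 and 184 antisense reads per 1000 sense reads; their sense reads numbered 1618 and 1199 in all. Protein-coding genes with 10 to 99 sense reads had 3.71 and 4.31 per 100 sense reads, not per 1000. On the same scale the list's rate was above that of this class in both libraries. The lists were not matched to classes of sense level. Mbnl1, a splicing regulator, had 36 and 32 antisense reads in its first region against 72 and 23, Qk, an RNA-binding protein, 12 and 57 against 87 and 65, and Celf1, another splicing regulator, 3 and 32 against 17 and 5. In the matrix and fibroblast list 8 and 9 of 23 genes had one, at 7.00 and 39.8 per 1000. Col1a1, which encodes a chain of type I collagen, had 57 and 90 reads at its 3′ end against 4124 and 576.

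Markers of other cell types had few antisense reads. The 6 endothelial markers had loci at 2 and 4 genes, such as Egfl7 with 5 and 2 reads against 76 and 50, and 7 and 7 antisense reads in all. For their 383 and 153 sense reads this was 18.3 and 45.8 per 1000, above the rate of all protein-coding genes. Protein-coding genes with 10 to 99 sense reads had 3.71 and 4.31 per 100 sense reads, not per 1000. On the same scale the endothelial rate was below that of this class in replicate 1 and above it in replicate 2. The list was not matched to a class of sense level. The 6 Schwann cell markers had one only at Pmp22, a myelin protein, with 1 and 6 reads against 182 and 151, or 3.03 and 17.5 per 1000 over the list. The 6 macrophage and immune markers had none for 67 and 37 sense reads, and the 5 erythroid ones none for 844 and 891. A count of 0 allows up to 3 reads.

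Most antisense models had a single exon. Spliced models occurred at 444 loci (7.01%) in replicate 1 and 288 (5.12%) in replicate 2, with 816 and 563 reads. Intergenic loci were spliced in 15.5% and 8.72% of cases and annotated genes in 87.7% and 85.7%. The 827 and 559 distinct antisense introns had 167 in common, and 90 complete chains of introns from 70 regions recurred, the longest with 6 exons.

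Most antisense introns with sequence fell into 2 kinds. Of the introns, 139 (16.8%) and 64 (11.4%) had exactly the ends of an annotated intron of the other strand, here called mirrored. Where annotated exon or promoter sequence covers both ends, all 14 and 8 mirrored introns read CT-AC on the antisense strand. This is the reverse complement of the GT-AG of the sense intron. The definition of mirrored therefore fixes CT-AC in advance wherever the sense intron is GT-AG. Of the 57 and 35 other introns with sequence, 49 and 33 read GT-AG and 4 and 1 GC-AG, the usual ends of introns on their own strand. The windows of 30 bases around both ends of an intron show the difference, with the first and last 2 bases of the intron in capitals. They were chosen after their values were seen, from the 14 introns with sequence found in both libraries.
Nr2f2 donor: tgcctctctgtacagCTgcaggaggaaagg
Nr2f2 acceptor: atgagaggccgatACcttcccgtctcatgc
Atp2a1 region 1 donor: gacaccatcccctgtCTgaagacggaagga
Atp2a1 region 1 acceptor: tctgcgacttctcACcatggctgtgatctc
Slc9a2 region 1 donor: tcgccaaccagttcgGTgggtgtgaacctc
Slc9a2 region 1 acceptor: ttcggctaattacAGgatggactgcggttt
E2f3 region 1 donor: cccggcggtcaccagGTactgctccagggc
E2f3 region 1 acceptor: ttttattatttgcAGccggagtttccaagt
Nr2f2 encodes an orphan nuclear receptor, and its mirrored intron at chr7:70358291-70359887 had 14 and 4 reads. Atp2a1 encodes the calcium pump of fast muscle, with 102580 and 37227 sense reads, and its mirrored intron at chr7:126448383-126448536 had 6 and 1. The introns of Slc9a2, a sodium-proton exchanger, and E2f3, a cell cycle transcription factor, are at chr1:40680802-40681718 and chr13:29985633-29985740 and had 2 and 1 reads, and 1 and 1. All 7 mirrored introns of the 14 read CT-AC and all 7 others GT-AG. Mirrored and other introns recurred in the second library at like rates in replicate 1, 20.1% and 20.2%, and at 43.8% and 28.1% in replicate 2.

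The most abundant spliced regions held both kinds. Ubl3, which encodes a membrane-anchored ubiquitin-like protein, had 7 and 51 antisense reads at chr5:148511894-148552157, all with 1 mirrored intron of 39950 bases, against 114 and 50 sense reads. Mbnl1 had 20 and 26 reads with a mirrored intron of 65789 bases. Ccdc80, a secreted matrix protein, had 30 and 11 antisense reads, of which 27 and 8 were spliced, with up to 3 exons and mirrored introns. Chains with all introns mirrored made up 22 of the 90 recurrent ones, and 68 had none.

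Unmirrored chains led at 9030025P20Rik and B230206L02Rik. Antisense to 9030025P20Rik, chr17:14981576-14992883 had 25 and 20 reads, 23 and 19 of them spliced into up to 5 exons, and ran past the sense gene's 3′ end; the sense gene had 5 and 2. Antisense to the non-coding gene B230206L02Rik had 34 and 11 reads, 33 and 11 of them spliced into up to 4 exons, against 6 and 4. In Camk2b, a kinase subunit, Ldb3, Klf9 and Chtop the spliced reads were few, 3 and 2, 3 and 3, 1 and 2, and 2 and 1, beside unspliced antisense reads.

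Many ends lay exactly on annotated exon edges. The leading model began at such a position in 30.6% and 28.9% of loci and ended at one in 21% and 21.8%. Only 7 and 9 loci began at the position 1 below an annotated edge in genome coordinates. At 458 and 504 loci the model began exactly on a sense transcript's last base, and at 6 and 6 it began 1 to 10 bases from one. Models of a single base existed at 77 and 129 loci with 176 and 362 reads, such as that of Prkaca. These ends cannot be taken as the ends of reads, so end sequences are given apart for them. Whether the deposited models were snapped to annotated positions was not tested.

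Off annotated positions, 3′ ends recurred between libraries far more precisely than 5′ ends. Over regions with 1 locus per library, 751 of 1308 pairs of 3′ ends (57.4%) were on the same base and 1044 (79.8%) within 10 bases. For 5′ ends the counts were 168 of 1090 (15.4%) and 433 (39.7%), with a median distance of 156.5 bases.

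Those 3′ ends stood before runs of A in the genome. Annotated exon or promoter sequence covered 697 of 5003 such ends in replicate 1 and 966 of 4401 in replicate 2. The covered ends were mostly in 3′ UTRs, and the values hold for covered ends alone. Of the 20 bases after the end, 71.1% and 73.4% were A, against 31.5% and 31.9% of the 20 before it. At least 12 A stood in 74.7% and 82.3% of windows and a run of at least 6 A in 66.7% and 65.7%. For antisense models ending at annotated positions, 12% and 11.1% had 12 A, and for unannotated models of annotated genes ending off such positions 13.9% and 12.4%. Single-read loci gave 74.8% and 82.7% and loci with at least 3 reads 75.1% and 82.5%.

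**Figure D4:**
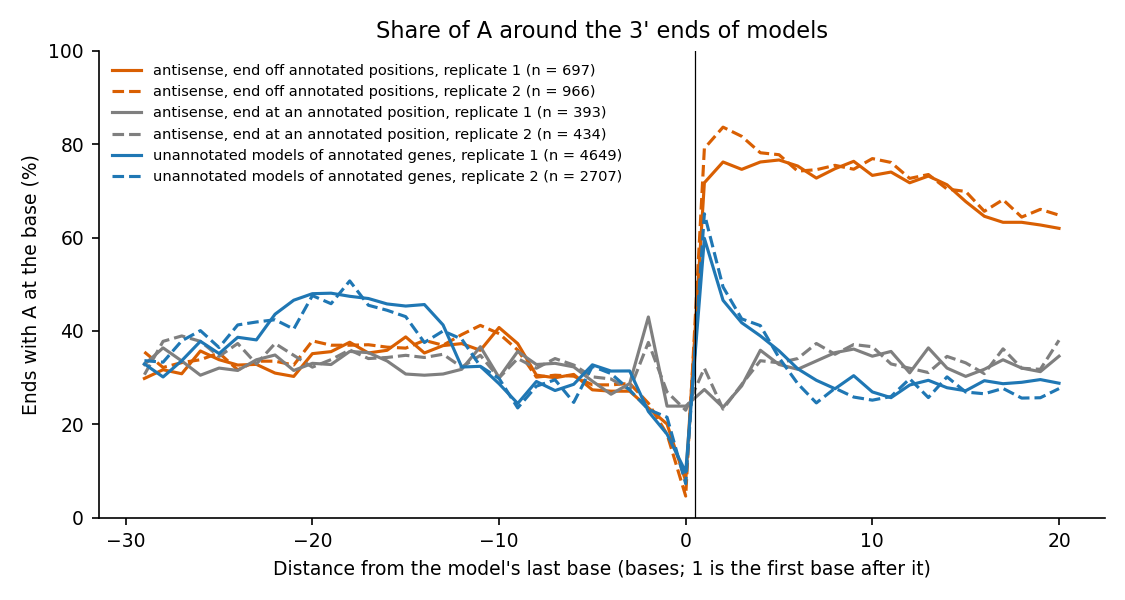
Share of 3′ ends with an A at each base from 29 before to 20 after the model's last base, in percent, for antisense models ending off (orange) and at (grey) annotated positions and for unannotated models of annotated genes (blue), with replicate 1 solid and replicate 2 dashed. After the end the orange lines stay above 60%, and over the 20 bases average 71.1% and 73.4%.

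Polyadenylation signals were less frequent before these ends than before those of sense transcripts. AATAAA or ATTAAA was searched on the model's own strand in its last 50 bases. Among antisense ends off annotated positions, a signal was present in 11.3% and 12.4% of the 697 and 966 with sequence. It was present in 69.7% and 71.2% of annotated transcripts with reads and in 58.7% and 59.4% of the unannotated models of annotated genes. Antisense ends at annotated positions had one in 9.16% and 13.8% of those with sequence. On the other strand of the middle of all 139262 annotated transcripts long enough, windows of the same length held one in 2.63%. Those middles were not matched to the antisense ends with sequence, which lay mostly over 3′ UTRs. A match is a description of letters, not a site of cleavage.

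The libraries differed more often in antisense regions than in genes, and no more often than in intergenic loci. In antisense regions the difference was nearly always in 1 direction. Each of 8390 features with 10 or more reads was tested for its share of a library's reads (two-sided Fisher's exact test, p adjusted by Benjamini-Hochberg). In it 130 of 369 antisense regions differed (35.2%), 122 of them higher in replicate 2 (33.1%) and 8 higher in replicate 1 (2.17%). Over all features 15% differed, with 7.96% higher in replicate 2 and 7.00% in replicate 1. Over annotated genes 13.8% differed, with 6.66% higher in replicate 2 and 7.18% in replicate 1. Of unannotated intergenic loci 24 of 66 differed (36.4%), with 24.2% higher in replicate 2 and 12.1% in replicate 1. The test compares 2 libraries, not conditions. Model lengths also differed: the median leading antisense model was 1324 bases in replicate 1 and 494 in replicate 2. For leading models of intergenic loci the medians were 584 and 202. Over all models of annotated genes, not the leading ones alone, they were 2124 and 1782. The part of length in the result was not tested.

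**Figure D5:**
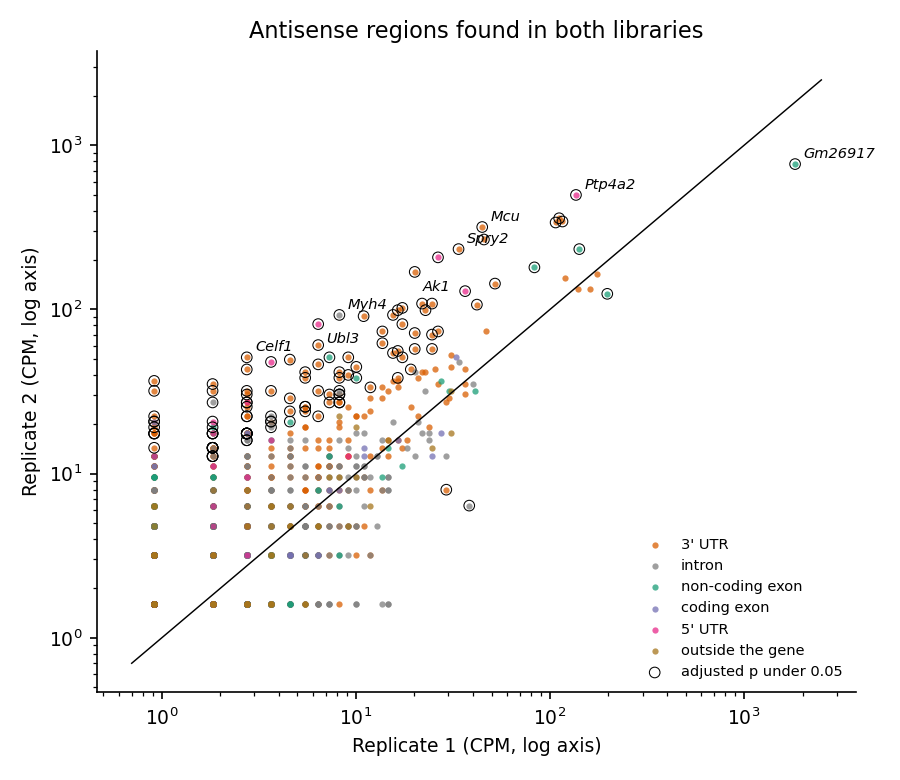
CPM of the 1976 antisense regions found in both libraries, replicate 1 against replicate 2 on log axes, coloured by the part of the sense gene under most bases, with a line of equal level and rings around regions with an adjusted p under 0.05. Most rings lie above the line, towards replicate 2; Gm26917 lies below it.

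Of the 15 most abundant regions, 9 were higher in replicate 2, 2 in replicate 1, and 4 did not pass the test. Over all features 15% differed, with 7.96% higher in replicate 2 and 7.00% in replicate 1. The share that differs depends on reads: it was 35.2% of antisense regions with at least 10 reads and 51.5% with at least 20. Mcu was 7.10-fold higher in replicate 2 (Fisher's exact test, adjusted p = 6.77e-43), Spry2 6.90-fold (4.08e-31), Sdc4 5.84-fold (5.21e-32), Ptp4a2 3.66-fold (4.70e-40) and Actb 3.22-fold (8.32e-25). Gm26917 was 2.38-fold higher in replicate 1 (adjusted p = 3.06e-74) and CT010467.1 1.58-fold (adjusted p = 0.00485). Among those that did not pass, Pitpnc1, Sept2 and Nfia had ratios of replicate 2 to replicate 1 of 0.960, 0.824 and 1.29, with adjusted p of 0.952, 0.404 and 0.233 by Fisher's exact test.

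The named regions of muscle genes, collagens and regulators that differed were also higher in replicate 2. Myh4 was 11.3-fold higher (Fisher's exact test, adjusted p = 1.54e-15), Ak1 8.42-fold (3.99e-25), Qk 8.30-fold (2.11e-13) and Celf1 18.6-fold (6.27e-10). Collagen regions Col1a1 and Col1a2 region 1, the latter a model of 3 bases, were 2.76-fold (4.43e-08) and 9.90-fold (0.00019) higher. Among their sense genes only Qk was higher in replicate 2, at 79.5 and 104 CPM. The others were lower there: Myh4 had 16880 and 11460 CPM, Ak1 5523 and 5030, and Celf1 15.5 and 7.98. Col1a1 had 3768 and 920 CPM, and Col1a2 667 and 286. Pvalb, with 37 and 30 antisense reads, had an adjusted p of 0.415, and Mbnl1 one of 0.264. Of the 10 named spliced regions Ubl3 alone passed, 12.7-fold higher in replicate 2 (Fisher's exact test, adjusted p = 3.05e-14). Over all antisense regions tested 35.2% differed, and over all features 15%. The spliced regions were not matched to these by read count.

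The most uneven regions had reads in 1 library alone. In an intron of Zfp839, chr12:110858070-110858565 had 186 reads in replicate 1 and 0 in replicate 2, at least 35.5-fold higher against the floor of 3 reads (Fisher's exact test, adjusted p = 4.71e-35). On the same strand the annotated pseudogene Mpc1-ps, which shares base 110858565 with it, had 17 and 122 reads, the opposite order; whether reads were assigned differently in the libraries was not tested. In the other direction Fnbp1 and Prkaca had 0 and 24 reads each (at least 14.0-fold higher in replicate 2), Ccnd2 0 and 23 (at least 13.4-fold) and Atcayos 0 and 18 (at least 10.5-fold). The Prkaca model was 1 base long and that of Fnbp1 80 bases.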

How the data were processed

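Both libraries are tables of whole-number counts per transcript model that the authors deposited, each with its annotation of models, on mm10 with GENCODE M21 per the file headers. The antisense class is the authors' own. The sources used here do not give the aligner, the strand setting, the read correction or any version. Reads outside ERCC spike-in RNAs numbered 1094607 and 626289, and CPM are counts per 1000000 of these.

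Each locus was given the annotated gene of the other strand with the longest overlap, and its place was taken from its most read model. At 37 and 26 loci no gene of GENCODE M21 lay opposite, and these have no place or ratio. Bases came from GENCODE M21 transcript sequences placed by their exons and from RefSeq promoter windows, so only ends within these have sequence.

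Fisher's exact test (Benjamini-Hochberg over every feature reaching 10 reads, threshold 0.05) set one library against the other, after a check on simulated counts with 200 changed features. Scripts ran in Python 3.11.15 with scipy 1.17.1, numpy 2.4.6, pandas 2.3.3 and matplotlib 3.10.9. TMM factors came from edgeR 4.0.16 in R 4.3.3. Read minimums, joining rules, thinning, TMM and leaving out a replicate were tried.

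Regions are named by a rule: the 15 most abundant found in both libraries, the 10 most abundant spliced ones, the 5 with the highest ratio to a sense gene of at least 10 reads, up to 4 per gene list, and the 5 most uneven. Others are said to be chosen after their values were seen. Members and lists were chosen with earlier results of these data known. Some named regions are not reported here.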

Additional observations from a re-analysis of the deposited data

How the results depend on the processing

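No paired analysis was possible because the series has 1 group. With at least 3 reads per locus, the antisense share averaged 1.21% of reads in place of 1.94%, 408 of 1315 regions (31%) in place of 1976 of 9726 (20.3%) were found in both libraries, 9.90% of loci in place of 6.06% were spliced, 47.8% in place of 71.0% lay mostly over introns, 36.9% in place of 16.4% mostly over a 3′ UTR, and 31.5% in place of 15.3% exceeded the sense gene. With at least 10 reads, a minimum chosen after seeing the data, the last 3 were 22.2%, 59.8% and 56.3%. Over reads on annotated models alone the antisense share was 2.79%, and with annotated models of the sense gene alone 37.6% of loci exceeded it. A minimum of 20 reads left 167 regions to test, of which 86 differed; TMM factors left 130. A run of 6 A in place of 12 A in 20, also chosen after seeing the data, gave 66.2% of ends in place of 78.5%. Under TMM the Nr2f2 region, which did not differ between libraries, changed sign to a log2 ratio of 0.016. Leaving out a replicate gave a range of 1.51% to 2.38% for the share of reads, 5.12% to 7.01% for spliced loci, 67.4% to 74.5% for introns, 12.5% to 20.2% for 3′ UTRs, 10.9% to 19.7% for loci above the sense gene and 74.7% to 82.3% for ends before A. Replicate 1 thinned to the reads of replicate 2 held 4192 loci in place of 6335, with 1474 regions in both libraries. Without thinning, 951 loci of replicate 1 had at least 3 reads. Depth limits every single-read locus, and 2 libraries cannot separate animal from library.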

Other observations

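Some values were chosen after the data were seen. The Acot2 and BC024978 region 1 windows at antisense 3′ ends hold the same 30 letters, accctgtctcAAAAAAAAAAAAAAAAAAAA, although they lie on different chromosomes, at chr12:83993239-83993268 and chr7:27204876-27204905, both on the minus strand. Both models ended on the same base in the 2 libraries.

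In Neat1, a nuclear non-coding RNA of paraspeckles, the antisense intron at chr19:5840809-5840867 is 59 bases long and had 6 and 2 reads. The windows of 30 bases around its ends share a run of 29 letters, and no other intron of the 14 with sequence in both libraries had a shared run of at least 10.
Neat1 region 2 donor: cccgggcatagagcaGTgtttgcaggaccc
Neat1 region 2 acceptor: ccgggcatagagcAGtgtttgcaggacccg
A longer chain, with 6 exons and all 5 introns mirrored, stood opposite Crebbp, a histone acetyltransferase, with 6 and 5 reads. Rian, an imprinted non-coding RNA, had 3 mirrored introns in its region 2, each reading CT-AC with 1 or 2 reads a library.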
